A study of Mus musculus with 20 samples.

Results

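The mouse genes followed here encode RNA-binding regulators of neuronal mRNAs and a partner of FMRP: Fmr1, Fxr1 and Fxr2 (the FMRP family), Cyfip1 (an FMRP partner), Pum2 (a Pumilio protein) and Stau1 and Stau2 (the Staufen proteins). They were taken by symbol from a fixed list and are 7 of the 38414 genes named in the deposited tables. All 7 were listed in all 4 expression tables and all 4 editing tables. The study used MAPIT-seq to read which RNAs lie near G3BP1, an RNA-binding protein of stress granules, in wild-type C57BL/6J embryos and fetal brains. Anti-G3BP1 is followed by a secondary antibody (guinea pig anti-rabbit) that draws in rAPOBEC1-pAG-hADAR2, a fusion of 2 deaminases to an antibody-binding domain, and RNA close to it gains A-to-G and C-to-T edits. The values below are thus edits and levels of these genes' own transcripts, and not of the RNAs that their proteins bind.

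The 20 libraries form 10 groups of 2. Both E10.5 tables, fixed embryo and fresh-frozen embryo, hold libraries with IgG, with anti-G3BP1 and without treatment. The brain tables, E12.5 and E16.5, are from fresh-frozen tissue and hold the IgG and anti-G3BP1 arms. All antibody libraries carry 0.2% FA as fixation in the labels and all received the same secondary antibody and fusion, with rabbit IgG or anti-G3BP1 as the only difference. The untreated libraries received no fixation, antibody or fusion, although those of the fixed embryo have Fixed as their treatment label. Antibody binding, the fusion and fixation therefore cannot be told apart in a comparison with untreated libraries. The labels do not say that the 2 libraries of a group come from separate animals. A p-value here therefore measures the spread between these samples alone, and that spread may be technical.

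FMRP, the product of Fmr1, represses translation of bound mRNAs at synapses, and its loss causes fragile X syndrome in humans. FXR1 and FXR2 are its paralogues. CYFIP1 links FMRP to the cap-binding factor eIF4E and is also a subunit of the WAVE complex, which drives actin branching. PUM2 binds short Pumilio motifs in 3′ UTRs and recruits the CCR4-NOT deadenylase. STAU1 and STAU2 bind double-stranded RNA and serve in mRNA transport, and STAU1 also in a decay pathway that uses UPF1. All are found in neuronal RNA granules.

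The edited share used below is the number of edited reads in all reads over kept sites, those covered by at least 10 reads in each library of a table. Mean depth at kept sites lay between 23.2 and 205.5 reads per library. Over all kept sites 0.198% to 0.659% of reads were edited with IgG, 0.342% to 1.24% with anti-G3BP1 and 0.352% to 0.573% in untreated libraries. In the fixed embryo, untreated libraries (0.397% and 0.573%) overlapped those with IgG (0.365% and 0.404%) and with anti-G3BP1 (0.486% and 0.497%). In the fresh-frozen embryo, untreated libraries (0.375% and 0.352%) lay below those with IgG (0.636% and 0.659%) and with anti-G3BP1 (1.22% and 1.24%). The fresh-frozen embryo libraries (E10.5 on the label) stood apart from that label. Their summed TPM (a level scaled to transcript length and to the library total) of 3 heart genes was 0.311 to 12.1, against 2104 to 3531 in the fixed embryo, and that of 3 trunk Hox genes was 0 to 1.88, against 592 to 855. Forebrain genes summed to 280.3 to 1166 TPM there, against 0.766 to 2.94 TPM in the fixed embryo, 14.6 to 37.7 TPM in E12.5 brain and 705 to 809 TPM in E16.5 brain. They are called the fresh-frozen table below, and all results from it rest on libraries with this marker pattern. In E12.5 brain forebrain markers were low, but neuronal markers summed to 2532 to 3063 TPM.

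A choice of edited sites in these genes is shown as windows of 21 bases, read 5′ to 3′ along the transcript from the GENCODE M21 transcript models on GRCm38, with the edited base in capitals. They are shown because their reads are described below, and because the bases beside the edited base can be compared. They are not in each case the site with most edited reads of a gene. The first 6 belong to the genes whose editing differed between antibodies, Fmr1 (chrX:68678541-68717963, plus strand) and Pum2 (chr12:8674134-8752581, plus strand), and all 6 lie in the 3′ UTR.
Fmr1 A-to-G, chrX, window 68716996-68717016: aactctgagtAggggtaccac
Pum2 A-to-G, chr12, window 8749775-8749795: ttatcaaaacAcaattcaact
Pum2 C-to-T, chr12, window 8749827-8749847: tatttattgaCtttcttcatc
Pum2 A-to-G, chr12, window 8750259-8750279: aaagaaagttAagttgtattt
Pum2 A-to-G, chr12, window 8750266-8750286: gttaagttgtAttttggtaat
Pum2 A-to-G, chr12, window 8750488-8750508: ctgaatgaaaAgttaaatctc
The next 5 give 1 site each of the other genes. The Fxr1 and Fxr2 sites lie in coding sequence, and the Cyfip1, Stau1 and Stau2 sites in the 3′ UTR.
Fxr1 A-to-G, chr3, plus strand, window 34069047-34069067: acagcactcaAgaagcagcag
Fxr2 A-to-G, chr11, plus strand, window 69651366-69651386: gggccggggaAggggaccccc
Cyfip1 C-to-T, chr7, plus strand, window 55930252-55930272: tctgaacctaCttttgatctg
Stau1 A-to-G, chr2, minus strand, window 166948378-166948398: ggcctggggaAgagcattgtg
Stau2 A-to-G, chr1, minus strand, window 16344538-16344558: acaatgagaaAgaagatgatg

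In E16.5 brain anti-G3BP1 gave more editing of Fmr1 than IgG did. Over 37 kept sites, 7 of 3733 reads (0.188%) and 11 of 2386 reads (0.461%) were edited in the IgG libraries, against 32 of 2261 reads (1.42%) and 43 of 3405 reads (1.26%) in the anti-G3BP1 libraries. The 95% Wilson intervals were 0.0909% to 0.387% and 0.258% to 0.824% with IgG, and 1.0% to 1.99% and 0.939% to 1.7% with anti-G3BP1. These intervals treat reads as independent, and reads without molecular identifiers are not independent molecules. Sites with 2 edited reads also outnumbered those with 1, such as 39517 against 25221 in E16.5 brain IgG replicate 1. The intervals may therefore be too narrow even for counting error. Both anti-G3BP1 libraries lay above both IgG libraries. Their intervals as computed did not overlap, which is not read as a test. The odds of an edited read rose 4.45-fold (log2 odds ratio 2.15 ± 0.50 SE, adjusted p = 0.00417, quasi-binomial model with limma's squeezeVar, Benjamini-Hochberg over 11741 genes). Of all genes tested there, 694 were called higher (5.91%), and the Fmr1 change was larger than 91.5% of all changes.

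The Fmr1 rise in E16.5 brain was spread over sites in the 3′ UTR. Of the 37 kept sites, 23 had a higher share with anti-G3BP1, 3 a lower share and 11 the same share, 0 edited reads in both groups included. Such site counts were not made over all genes, here or below. Over all kept sites in E16.5 brain 0.215% and 0.225% of reads were edited with IgG, against 0.371% and 0.342% with anti-G3BP1. The A-to-G site in the first window above had 3 of 110 and 5 of 93 reads edited with IgG against 13 of 71 and 10 of 111 with anti-G3BP1, or 3.94% against 12.6% when libraries were summed. With the most edited site of every gene left out, Fmr1 kept its call (log2 2.44, adjusted p = 0.0136, same model). The site with the next most edited reads, a C-to-T at position 68717266, had 1 edited read in 1 IgG library and 4 in 1 anti-G3BP1 library, with 0 in the other libraries. A further pair of C-to-T sites, at positions 68715708 and 68716373 and chosen after their values were seen for a share of 5% or more, had 2 and 3 edited reads, in the second anti-G3BP1 library only.

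By kind of edit, the Fmr1 difference in E16.5 brain was larger for A-to-G. A-to-G shares were 0.143% and 0.385% with IgG against 1.86% and 1.62% with anti-G3BP1 (8 and 53 edited reads in all), and the change held for these sites alone (log2 2.81, adjusted p = 0.0123). C-to-T shares were 0.244% and 0.552% with IgG against 0.878% and 0.839% with anti-G3BP1 (10 and 22 edited reads), which did not pass (log2 1.19, adjusted p = 0.781). The difference between the 2 kinds was not tested. The call was lost without IgG replicate 1 (log2 1.51, adjusted p = 0.362), without anti-G3BP1 replicate 1 (log2 2.08, adjusted p = 0.190) and without anti-G3BP1 replicate 2 (log2 2.25, adjusted p = 0.119), and it held without IgG replicate 2 (log2 2.79, adjusted p = 0.0305). In these fits 1 group has a single library, which is assumed to vary like the other group.

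**Figure D1:**
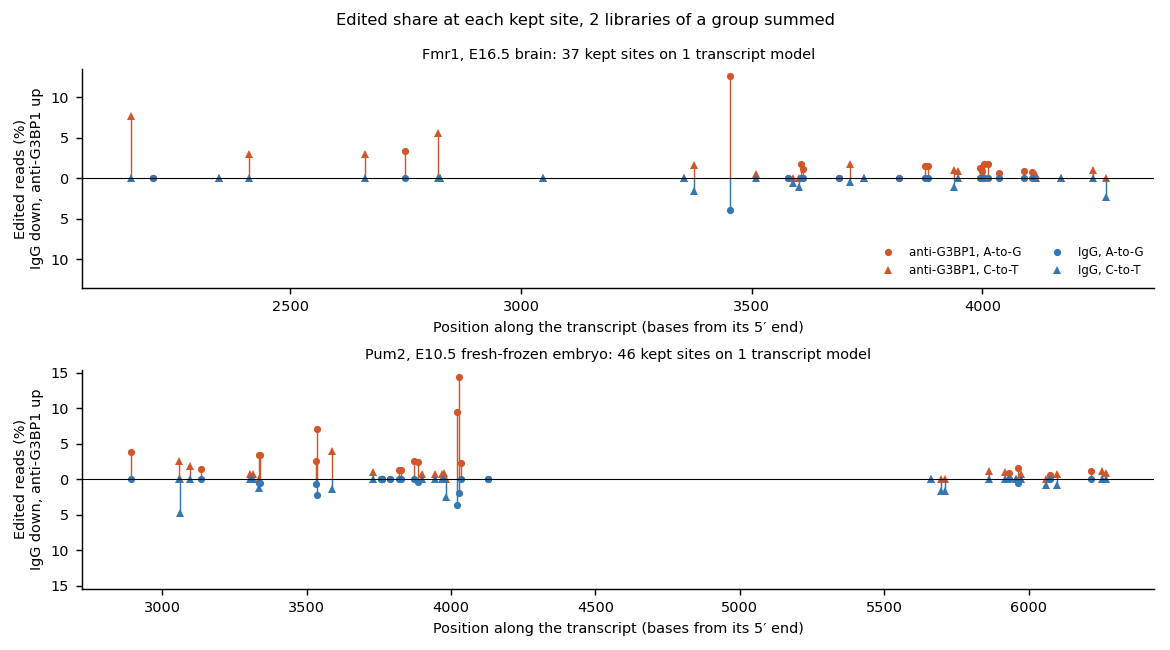
Edited share of reads (%) at each kept site of Fmr1 in E16.5 brain (top, 37 sites) and of Pum2 in the fresh-frozen table (bottom, 46 sites), against the position in bases along 1 transcript model, with anti-G3BP1 drawn upwards and IgG downwards, 2 libraries summed, circles for A-to-G and triangles for C-to-T. The highest points are the Fmr1 A-to-G site at 12.6% with anti-G3BP1 and 3.94% with IgG, and a Pum2 A-to-G site at 14.4% and 1.87%.

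In the other tables Fmr1 gave few reads and its change did not pass. Among fresh-frozen libraries, 6 of 307 and 4 of 191 reads were edited with IgG, 6 of 234 and 6 of 372 with anti-G3BP1, and 0 of 198 and 0 of 264 in untreated libraries, over 10 kept sites. The counts of 0 allow shares of up to 1.52% and 1.14%. The IgG and anti-G3BP1 libraries overlapped (1.95% and 2.09%, against 2.56% and 1.61%) and all 4 lay above the untreated ones (log2 odds ratio of anti-G3BP1 over IgG −0.03 ± 0.79, adjusted p = 0.986). At E10.5 in the fixed embryo, 0 of 412 and 2 of 209 reads were edited with IgG, 4 of 250 and 2 of 193 with anti-G3BP1, and 0 of 245 and 0 of 59 in untreated libraries (log2 1.88 ± 1.31, adjusted p = 0.910). Both anti-G3BP1 libraries lay above both IgG libraries there, as in 21.6% of the 5594 genes tested, and 1 gene (0.0179%) was called. In E12.5 brain no edited read was seen at 6 kept sites in 84, 148, 75 and 117 reads. These counts of 0 allow shares of up to 2.03% to 4.0% per library, so they do not exclude a share such as that in E16.5 brain.

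The 2 paralogues of Fmr1 were not called in any table. Fxr1 (chr3:34019943-34070322, plus strand) had 0.447% and 0.164% of reads edited with IgG in E16.5 brain and 0.439% and 0.307% with anti-G3BP1, so the groups overlapped (log2 0.13 ± 0.68, adjusted p = 0.950). Its coding A-to-G site in the window above had 3 of 167 and 0 of 131 reads edited with IgG, against 2 of 79 and 5 of 207 with anti-G3BP1, in that table. Its shares in the fixed embryo were 0.201% and 0.496% with IgG, 0.526% and 0.179% with anti-G3BP1, beside 0.334% and 0.839% in untreated libraries (log2 0.27 ± 0.85, adjusted p = 0.960). In E12.5 brain it had 0 edited reads in both IgG libraries and in 1 anti-G3BP1 library and 3 of 613 in the other. Fxr1 was not tested in the fresh-frozen table, because its 4 kept sites held under 50 reads in 1 untreated library. There 2 of 170 and 0 of 142 reads were edited with IgG, 8 of 186 and 5 of 204 with anti-G3BP1, and 0 of 64 and 0 of 48 in untreated libraries. Both anti-G3BP1 libraries lay above the others, on 13 edited reads. Of these, 6 were at the A-to-G at position 34069722, which had 0 with IgG.

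Fxr2 (chr11:69632990-69653297, plus strand) had higher shares with anti-G3BP1 in both brain tables, without passing the test. In E16.5 brain they were 0.143% and 0.237% with IgG against 0.442% and 0.34% with anti-G3BP1 (log2 1.04 ± 0.44, adjusted p = 0.166). The site with most edited reads there, an A-to-G in the 3′ UTR at position 69652911, had 3 of 460 and 4 of 342 reads edited with IgG, against 1 of 216 and 5 of 414 with anti-G3BP1, which overlapped. In E12.5 brain they were 0.105% and 0.284% with IgG against 0.433% and 0.393% (log2 0.74 ± 0.84, adjusted p = 0.841). The groups did not overlap in either brain table, as in 42.1% of genes tested in E16.5 brain and 27.6% in E12.5 brain. In E12.5 brain no gene (0%) was called, 170 were higher and 6 lower at an unadjusted p under 0.05, and edgeR also called 0. The coding A-to-G site in the Fxr2 window above held 13 of the 21 anti-G3BP1 edited reads of this gene in E12.5 brain, with 0 of 33 and 2 of 86 reads edited with IgG against 8 of 69 and 5 of 72 with anti-G3BP1. Without the most edited site of every gene the Fxr2 change in E12.5 brain turned to −0.26. In the fixed embryo the order was the opposite, with 0.292% and 0.287% in the IgG libraries above 0.186% and 0.176% with anti-G3BP1, beside untreated shares of 0.161% and 0.717% (log2 −0.58 ± 1.16, adjusted p = 0.948). The groups overlapped in the fresh-frozen table, at 0.54% and 0.386% with IgG, 0.579% and 0.357% with anti-G3BP1, beside 0.305% and 0.476% in untreated libraries (log2 −0.07 ± 0.93, adjusted p = 0.972).

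Cyfip1 (chr7:55841745-55932602, plus strand) was not called either, and its values varied between libraries of a group. In E16.5 brain its shares were 0.5% and 0.0775% with IgG against 0.394% and 1.07% with anti-G3BP1 (log2 1.34 ± 0.61, adjusted p = 0.208), so the groups overlapped. Fresh-frozen shares were 1.23% and 1.15% with IgG, 1.65% and 3.97% with anti-G3BP1, beside 0.303% and 0% in untreated libraries (log2 1.40 ± 0.82, adjusted p = 0.380). The anti-G3BP1 libraries lay above the others there, and the second of them held 22 of 26 edited reads, 6 of them at the C-to-T site in the Cyfip1 window above, where the 3 other antibody libraries and both untreated libraries had 0. The site with most edited reads, an A-to-G at position 55930281, had 2 of 32 and 2 of 25 reads edited with IgG, 1 of 20 and 2 of 56 with anti-G3BP1, and 1 of 29 and 0 of 26 in untreated libraries, so that both IgG shares there lay above both anti-G3BP1 shares. Shares in the fixed embryo were 1.18% and 0% with IgG, 0.905% and 1.12% with anti-G3BP1, beside 0.426% and 0% in untreated libraries (log2 0.58 ± 0.98, adjusted p = 0.938). In E12.5 brain 2 of 125 reads in 1 anti-G3BP1 library and no other read were edited.

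Pum2 editing was higher with anti-G3BP1 in 2 tables, fresh-frozen and E16.5 brain. In the former, 18 of 4253 reads (0.423%) and 22 of 3521 reads (0.625%) were edited with IgG, 59 of 3777 reads (1.56%) and 105 of 5711 reads (1.84%) with anti-G3BP1, and 4 of 3873 reads (0.103%) and 8 of 3718 reads (0.215%) in untreated libraries, over 46 kept sites. The 3 groups did not overlap, and the Wilson intervals of both anti-G3BP1 libraries (1.21% to 2.01% and 1.52% to 2.22%) lay above those of both IgG libraries (0.268% to 0.668% and 0.413% to 0.944%). These intervals may be too narrow, as stated for Fmr1, and are not read as a test. The odds rose 3.37-fold over IgG (log2 1.75 ± 0.37, adjusted p = 0.00212). Of 7836 genes tested there, 189 (2.41%) were called higher, and the Pum2 change was larger than 76.6% of all changes. The call was lost without either IgG library (log2 1.47 and 2.03, adjusted p = 0.685 and 0.658) and without either anti-G3BP1 library (log2 1.84 and 1.61, adjusted p = 0.300 and 0.348).

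The Pum2 sites in the fresh-frozen table mostly moved one way. Of 46 kept sites, 33 had a higher share with anti-G3BP1, 6 a lower one and 7 the same. Over all kept sites of this table the edited share was also higher with anti-G3BP1. It was 0.636% and 0.659% with IgG, against 1.22% and 1.24%. The count of Pum2 sites is thus not shown to be particular to Pum2. At the A-to-G site of the window starting at 8749775, 4 of 187 and 3 of 142 reads were edited with IgG, 9 of 154 and 18 of 226 with anti-G3BP1, and 0 of 146 and 0 of 130 in untreated libraries. At the nearby C-to-T site, 2 of 187 and 3 of 177 reads were edited with IgG, 8 of 158 and 9 of 273 with anti-G3BP1, and 0 of 159 and 1 of 153 in untreated libraries. Both anti-G3BP1 libraries exceeded both IgG libraries at each of these sites. A pair of A-to-G sites 7 bases apart, at positions 8750269 and 8750276 and named after their values were seen, had summed shares of 3.6% and 1.87% with IgG against 9.52% and 14.4% with anti-G3BP1. Neither had an edited read in the untreated libraries. A-to-G shares over all sites were 0.492% and 0.55% with IgG against 2.49% and 2.89% with anti-G3BP1, and C-to-T shares were 0.361% and 0.69% against 0.813% and 1.01%. A-to-G sites alone passed (log2 2.40, adjusted p = 0.0184) and C-to-T sites alone did not (log2 0.85, adjusted p = 0.669).

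In E16.5 brain Pum2 had the deepest coverage of the 7 genes, with 101 kept sites. There 53 of 31905 reads (0.166%) and 33 of 23258 reads (0.142%) were edited with IgG, and 56 of 19821 reads (0.283%) and 93 of 30479 reads (0.305%) with anti-G3BP1. The groups did not overlap, and the odds rose 1.9-fold (log2 0.92 ± 0.26, adjusted p = 0.0203), a change larger than 63.2% of all changes. At the A-to-G site of the window starting at 8750488, 3 of 102 and 1 of 66 reads were edited with IgG against 7 of 87 and 10 of 99 with anti-G3BP1. The site at 8750269 also had edited reads here, 0 of 55 and 0 of 36 with IgG against 4 of 31 and 1 of 51 with anti-G3BP1. Of the 101 sites, 49 had a higher share, 28 a lower one and 24 the same. The call did not hold without the most edited site of every gene (log2 0.82, adjusted p = 0.0719), for A-to-G or C-to-T sites alone (log2 1.2 and 0.72, adjusted p = 0.0738 and 0.529), or without any 1 of the 4 libraries (log2 0.83 to 1.06, adjusted p = 0.192 to 0.272).

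In the fixed embryo and in E12.5 brain Pum2 did not pass. Its shares in the fixed embryo were 0.0594% and 0.306% with IgG, 0.356% and 0.137% with anti-G3BP1, beside 0.194% and 0.496% in untreated libraries (log2 0.66 ± 0.70, adjusted p = 0.910). In E12.5 brain they were 0% and 0.136% with IgG against 0.268% and 0.0583% with anti-G3BP1 (log2 0.51 ± 1.02, adjusted p = 0.932). The groups overlapped in both. No kept Pum2 site had more edited reads in the antibody libraries than the A-to-G at 8751262 in the fixed embryo. It had 3 with IgG and 0 with anti-G3BP1. In E12.5 brain none had more than the C-to-T at 8750629, with 2 and 0. Whether the anti-G3BP1 over IgG change differed between E16.5 and E12.5 brain was tested over sites that both tables kept. The Pum2 difference, over 19 such sites, was 2.00 ± 1.32 on the log2 scale (adjusted p = 0.996). Fxr1, Fxr2 and Stau1, on 3, 4 and 6 shared sites, had differences of −0.17, −1.17 and 0.10 (adjusted p = 0.996 each), and no gene (0%) of 2804 was called, with 60 higher and 10 lower at an unadjusted p under 0.05.

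**Figure D2:**
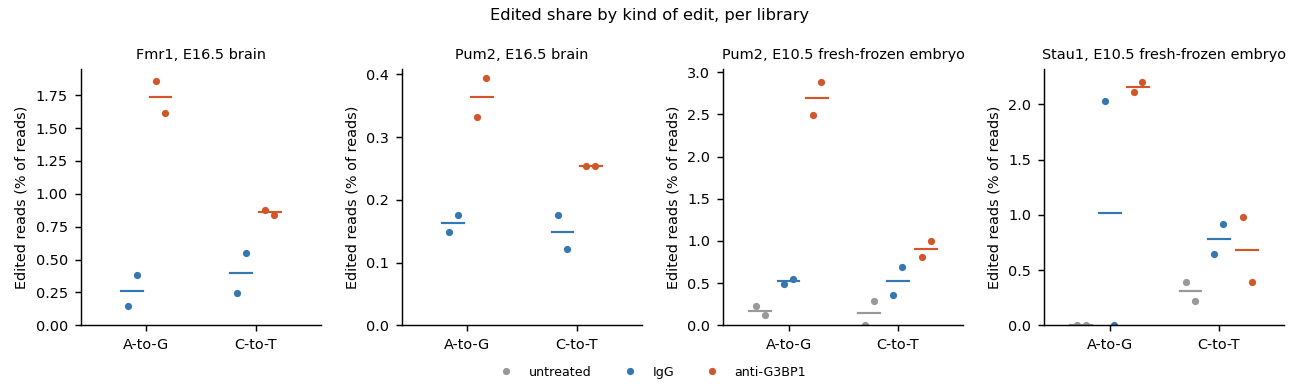
Edited share (% of reads) by kind of edit in each library (points) with the group mean (lines), for Fmr1 and Pum2 in E16.5 brain and for Pum2 and Stau1 in the fresh-frozen table, with axes that start at 0 and differ between panels. The A-to-G points of anti-G3BP1 lie above those of IgG in all 4 panels, while the C-to-T points of Stau1 overlap.

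Stau1 (chr2:166947549-166996299, minus strand) and Stau2 (chr1:16228674-16520112, minus strand) were not called. Stau1 in E16.5 brain had 0.151% and 0.22% of reads edited with IgG against 0.417% and 0.254% with anti-G3BP1, groups that did not overlap (log2 0.79 ± 0.45, adjusted p = 0.389). In the fresh-frozen table it had 1.12% and 0.602% with IgG, 1.35% and 1.01% with anti-G3BP1, beside 0.261% and 0.152% in untreated libraries (log2 0.42 ± 0.48, adjusted p = 0.609). The IgG and anti-G3BP1 libraries overlapped there, and all 4 lay above the untreated ones. The A-to-G site in the Stau1 window above was listed in 3 tables. It had 2 of 77 and 0 of 94 reads edited with IgG, 8 of 137 and 10 of 176 with anti-G3BP1, and 0 of 86 and 0 of 65 in untreated libraries of that table. In E16.5 brain the same site had 2 of 225 and 0 of 129 with IgG against 3 of 86 and 2 of 197 with anti-G3BP1. Stau1 shares in the fixed embryo were 0.476% and 0.915% with IgG, 0.176% and 0.594% with anti-G3BP1, beside 0.662% and 0.346% in untreated libraries, all overlapping (log2 −0.83 ± 0.91, adjusted p = 0.911). No kept Stau1 site had more edited reads in the fixed embryo antibody libraries than the C-to-T at position 166948553. It had 5 with IgG and 0 with anti-G3BP1. In E12.5 brain Stau1 had 1 edited read with IgG against 5 with anti-G3BP1, all 5 in 1 library (log2 1.77 ± 1.74, adjusted p = 0.831).

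Stau2 could be tested in 2 tables, since none of its 5 sites in the fixed embryo and 19 sites in E12.5 brain reached the read minimum. In the fresh-frozen table its shares were 0.318% and 1.24% with IgG, 1.99% and 1.65% with anti-G3BP1, beside 0.074% and 0.585% in untreated libraries (log2 1.19 ± 0.64, adjusted p = 0.349). Both anti-G3BP1 libraries lay above both IgG libraries, and 16 of 22 kept sites had a higher share with anti-G3BP1. The site with most edited reads there, an A-to-G at position 16344419, had 0 of 66 and 3 of 28 reads edited with IgG, 0 of 32 and 6 of 71 with anti-G3BP1, and 0 of 36 and 0 of 48 in untreated libraries. In E16.5 brain the shares were 0.303% and 0.515% with IgG against 0.443% and 0.455% with anti-G3BP1, which overlapped (log2 0.22 ± 0.41, adjusted p = 0.807), and 18 of 67 sites were higher and 16 lower. The A-to-G site in the Stau2 window above had 2 of 141 and 1 of 114 reads edited with IgG, against 2 of 100 and 2 of 148 with anti-G3BP1, in E16.5 brain.

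**Figure D3:**
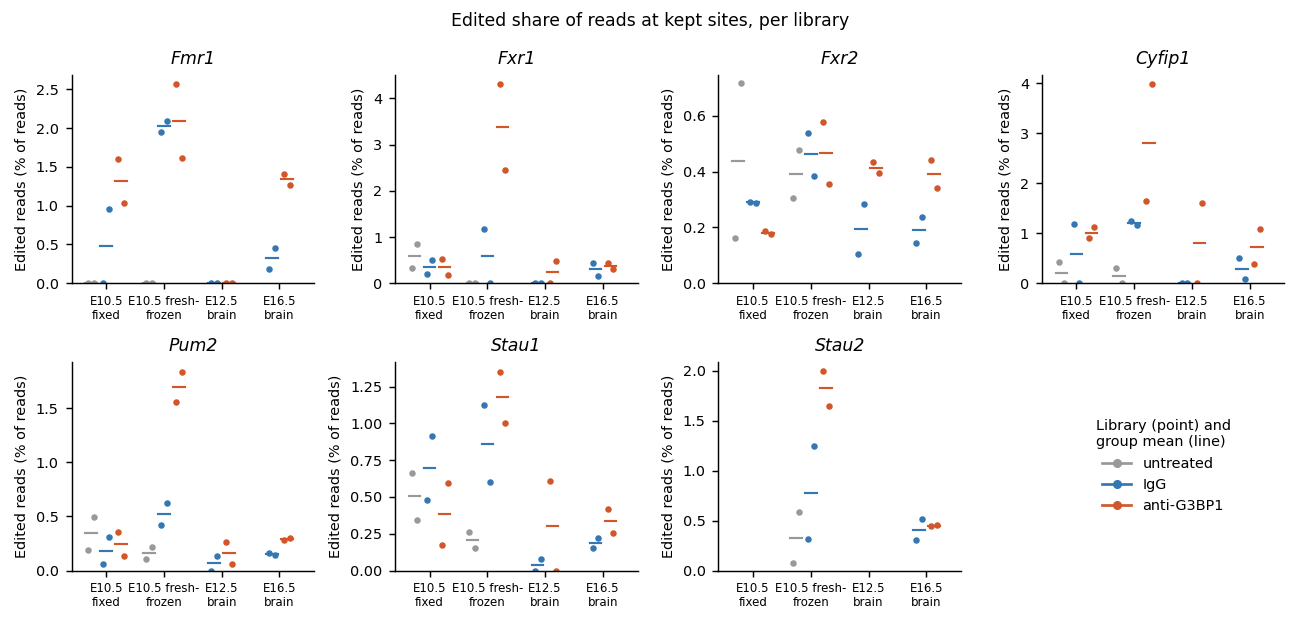
Edited share (% of reads at kept sites) in each library (points) with the group mean (lines), by table along the horizontal axis and antibody by colour, 1 panel per gene with its own axis from 0. Fmr1 in E16.5 brain and Pum2 in the fresh-frozen table show the anti-G3BP1 points apart from the IgG points, while Fxr1 and Stau1 points overlap in the fixed embryo.

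Counted over tables, 2 of the 7 genes were called higher in E16.5 brain (Fmr1 and Pum2), where 5.91% of all genes were, 1 of 6 tested in the fresh-frozen table (Pum2), where 2.41% were, and none of 6 in the fixed embryo or in E12.5 brain. The anti-G3BP1 libraries lay above the IgG libraries without overlap in 4 of 7 genes in E16.5 brain (Fmr1, Fxr2, Pum2 and Stau1), as in 42.1% of all genes, and in 3 of 6 in the fresh-frozen table (Cyfip1, Pum2 and Stau2), as in 47.1%. They did so in 1 of 6 in the fixed embryo (Fmr1, 21.6% of all genes) and in 1 of 6 in E12.5 brain (Fxr2, 27.6%). In the fixed embryo Fxr2 was lower without overlap, and genes lower in this way were not counted over all genes. The median log2 change of the genes tested was 0.92 in E16.5 brain, against 0.65 over all genes, 0.81 against 0.91 in the fresh-frozen table, and 0.43 against 0.31 in the fixed embryo. No median is given for E12.5 brain, where 3 of the 6 genes (Fmr1, Fxr1 and Cyfip1) had 0 edited reads in both IgG libraries. All genes called against IgG were higher, but relative to the median change of all genes only 4 genes were called in E16.5 brain, 4 in the fresh-frozen table and 2 in the fixed embryo, of which 25%, 25% and 50% were higher. Relative to that median neither Fmr1 (log2 1.5, adjusted p = 0.513) nor Pum2 (log2 0.27, adjusted p = 0.832) passed in E16.5 brain, and Pum2 did not pass in the fresh-frozen table (log2 0.84, adjusted p = 0.617). Their calls are thus changes against IgG and are not shown to exceed those of other genes.

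**Figure D4:**
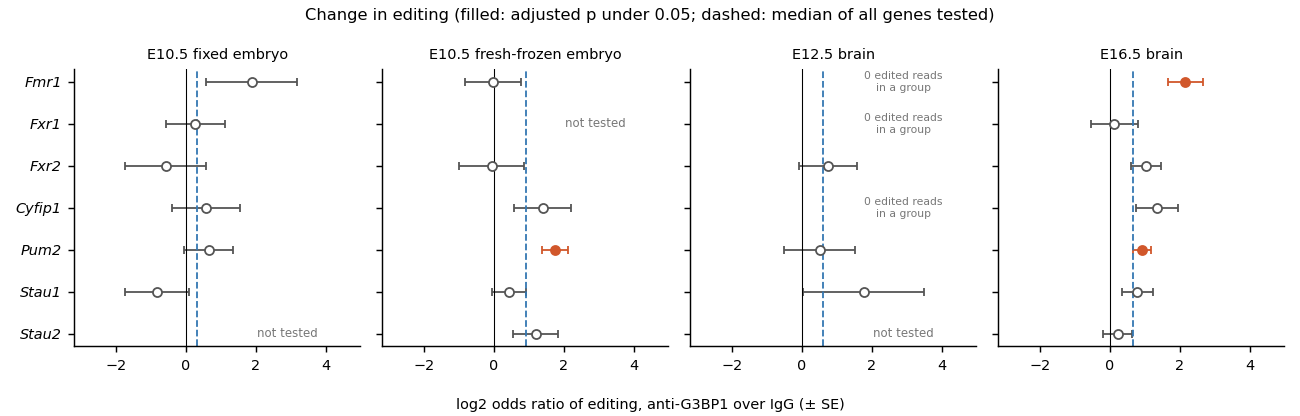
Log2 odds ratio of editing, anti-G3BP1 over IgG, for each gene (points, bars ± SE) in the 4 tables, with filled points at an adjusted p under 0.05, a black line at 0 and a dashed line at the median of all genes tested. The 3 filled points are Fmr1 (2.15) and Pum2 (0.92) in E16.5 brain and Pum2 (1.75) in the fresh-frozen table.

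The background of IgG over untreated libraries was measured in the same way at E10.5. No member was called. In the fresh-frozen table, where 19 genes (0.242%) were called higher, Stau1 had a log2 change of 2.01 ± 0.81 (adjusted p = 0.550) and Pum2 one of 1.67 ± 0.68 (adjusted p = 0.554). The Pum2 IgG shares of 0.423% and 0.625% lay above both untreated shares, as did both IgG shares of Stau1. Genes with this order were not counted over all genes, here or above. Over all kept sites of this table the IgG shares (0.636% and 0.659%) also lay above the untreated ones (0.375% and 0.352%). Cyfip1 (2.41 ± 1.76, adjusted p = 0.722), Stau2 (1.26 ± 0.90, adjusted p = 0.722) and Fxr2 (0.19 ± 1.08, adjusted p = 0.974) did not pass. For Fmr1 no fold is given at E10.5, since its untreated libraries had 0 edited reads in both tables. Of the lists described below, 1 gene passed, the microtubule protein gene Map1b among 18 FMRP-bound mRNAs (1.72 ± 0.23, adjusted p = 4.04e-06). In the fixed embryo no gene (0%) was called, with 2 higher and 138 lower at an unadjusted p under 0.05, and values were −0.69 ± 0.77 for Pum2 (adjusted p = 0.950), −0.44 ± 0.82 for Fxr1 (adjusted p = 0.966), 0.04 ± 1.16 for Fxr2 (adjusted p = 0.997), 0.77 ± 1.47 for Cyfip1 (adjusted p = 0.967) and 0.09 ± 0.87 for Stau1 (adjusted p = 0.991). The anti-G3BP1 and untreated comparisons share the IgG libraries.

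Kept sites of these genes lay mostly in 3′ UTRs. In E16.5 brain all 37 kept sites of Fmr1, 100 of 101 of Pum2, 47 of 52 of Stau1, 52 of 67 of Stau2, 27 of 36 of Cyfip1, 18 of 26 of Fxr1 and 20 of 37 of Fxr2 were in the 3′ UTR, against 67.7% over all genes. Coding sites numbered 15 in Fxr2, 15 in Stau2, 9 in Cyfip1 and 8 in Fxr1. Fmr1 kept no coding site in any table. Few positions recurred, since of 765 listed positions 677 were in 1 table, 73 in 2, 14 in 3 and 1, in Stau1, in all 4. Recurrence was not counted over all genes, so this is not shown to be particular to these genes. No position had edited reads in all antibody libraries of 3 tables or more.

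The base before the edited base was also counted. Among C-to-T sites of the 7 genes with an edited read in an anti-G3BP1 library, A came before the edited base in 52 of 97 sites in E16.5 brain (53.6%), against 48.4% over all genes, and in 26 of 49 in the fresh-frozen table (53.1%), against 46.7%. In the fixed embryo it came before in 7 of 21 (33.3%), against 25.8%. E12.5 brain went the other way, with 2 of 9 (22.2%), against 39.1%. Over all kept C-to-T sites in E16.5 brain the shares were 38.5% and 33.9%. Among A-to-G sites with such a read in E16.5 brain, A came before in 38.7% and T in 34.7%, against 29.0% and 27.0% over all genes. The C-to-T windows of Pum2 and Cyfip1 printed above have an A before the edited base, and the Fmr1 A-to-G window has a T. These counts describe the sites and were not tested.

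Genes that work with these 7 were followed in 5 lists. No listed gene was called in the fixed embryo or in E12.5 brain. Of 17 tested FMRP partners in granules and translation control, 5 rose in E16.5 brain with anti-G3BP1 over IgG and none fell (median log2 1.13, against 0.65 over all genes, of which 5.91% rose). They were Caprin1, the G3BP1-binding granule protein (1.27 ± 0.23, adjusted p = 0.000373), the helicase Ddx3x (1.41 ± 0.30, adjusted p = 0.00173), the hnRNP Syncrip (1.13 ± 0.25, adjusted p = 0.00214), G3bp2 and the decapping helicase Ddx6. Of 8 WAVE complex genes 1 rose, Nckap1, a direct partner of CYFIP proteins in that complex (1.61 ± 0.34, adjusted p = 0.00169). Of 12 Pumilio partners and CCR4-NOT subunits 1 rose, the deadenylase Cnot7 (1.27 ± 0.39, adjusted p = 0.0339). Of 12 genes of Staufen partners and Staufen-mediated decay 2 rose, Hnrnpu (1.04 ± 0.21, adjusted p = 0.000767) and Zfr (1.13 ± 0.35, adjusted p = 0.0405). Of 19 mRNAs reported as bound by FMRP in neurons 6 rose, led by the microtubule proteins Map1b (1.22 ± 0.19, adjusted p = 4.59e-05) and Map2 (0.82 ± 0.18, adjusted p = 0.0019) and the ankyrin Ank3 (0.94 ± 0.22, adjusted p = 0.00497), with a list median of 0.70.

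In the fresh-frozen table, where 2.41% of all genes rose, the same lists gave 1 of 17 FMRP partners, Ddx6 (1.47 ± 0.40, adjusted p = 0.0279), 0 of 8 WAVE genes, 0 of 9 Pumilio partners, 1 of 12 Staufen genes, Zfr (1.61 ± 0.41, adjusted p = 0.0177), and 7 of 18 FMRP-bound mRNAs. The last were led by Map2 (1.78 ± 0.24, adjusted p = 3.91e-06), Map1b (1.23 ± 0.18, adjusted p = 1.4e-05) and the ankyrin Ank2 (1.22 ± 0.25, adjusted p = 0.00174). List medians were 1.29, 1.70, 0.86, 0.74 and 0.94, against 0.91 over all genes. Relative to the median change of all genes none of the calls with values given here for anti-G3BP1 over IgG passed, and each was lost when either anti-G3BP1 library was left out. All but Caprin1, Map1b and Ddx3x in E16.5 brain were also lost without either IgG library, and Ddx3x without IgG replicate 1. Each was lost for C-to-T sites alone. In E16.5 brain Ank3, Cnot7 and Syncrip were also lost for A-to-G sites alone. The fresh-frozen calls of Ddx6 and Zfr were also lost with the replicate block (1.46 and 1.61, adjusted p = 0.120 and 0.0746) and without the most edited site (1.07 and 1.44, adjusted p = 0.308 and 0.112), and that of Ddx6 with 20 reads per site or per gene (1.46 and 1.47, adjusted p = 0.0703 and 0.0653). In E16.5 brain Cnot7 and Zfr did not pass without the most edited site (1.15 and 1.02, adjusted p = 0.0649 and 0.0912).

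Transcript levels of the 7 genes differed between tables. The 4 tables were normalized separately, so levels across them are set side by side on the TPM scale. By the mean of all libraries, Fxr2 was the most abundant of the 7 in the fixed embryo and in E12.5 and E16.5 brain, Pum2 in the fresh-frozen table, and Fmr1, Cyfip1 and Stau2 were the 3 lowest in the fixed embryo and in E12.5 brain. Fewer cells of a type and less RNA per cell cannot be told apart in these bulk libraries.

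Stau2 levels differed between tables. It stood at 12.9 and 9.41 TPM with IgG, 10.8 and 11.1 with anti-G3BP1, and untreated libraries at 12.6 and 12.1 in the fixed embryo. At E12.5 it stood at 15.8 and 17.8 with IgG against 14.3 and 9.05 with anti-G3BP1, and in E16.5 brain at 51.6 and 45.6 with IgG against 49.6 and 49.1 with anti-G3BP1. The fresh-frozen table had 86.3 and 98.3 with IgG, 73.7 and 95.1 with anti-G3BP1, and untreated libraries at 119 and 112. The fixed embryo and E12.5 brain overlapped, E16.5 brain lay above both, and the fresh-frozen libraries above all others. Stau2 rose from E12.5 to E16.5 brain by 1.75 ± 0.17 on the log2(TPM + 1) scale (adjusted p = 5.53e-05, limma, antibody as covariate), a 3.36-fold change. In that comparison 6516 genes (32.3%) were called higher and 3573 (17.7%) lower. It did not pass between the fixed embryo and E12.5 brain (0.31 ± 0.20, adjusted p = 0.226), except without E12.5 brain anti-G3BP1 replicate 2 (0.48, adjusted p = 0.0418).

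Fmr1 stood at 19.4 and 16.7 TPM with IgG, 16.0 and 18.2 with anti-G3BP1, and untreated libraries at 19.6 and 16.4 in the fixed embryo. At E12.5 it stood at 20.1 and 19.5 with IgG but at 10.7 and 12.9 with anti-G3BP1, and in E16.5 brain at 24.8 and 22.1 with IgG against 24.8 and 22.8 with anti-G3BP1. The fresh-frozen libraries had 33.3 and 21.7 with IgG, 21.0 and 25.3 with anti-G3BP1, and untreated libraries at 25.2 and 25.5. E12.5 brain overlapped the fixed embryo and lay below E16.5 brain in every library. The stage difference of Fmr1 was 0.59 ± 0.17 (adjusted p = 0.0192), and it did not pass in IgG libraries alone (0.23, adjusted p = 0.285) or without either E16.5 brain anti-G3BP1 library (0.50 and 0.54, adjusted p = 0.0695 and 0.0651). Fmr1 lies on the X chromosome, and the 2 brain tables also differed in Xist, the X-inactivation RNA (226 to 315 TPM at E12.5 and 5.35 to 10.6 at E16.5), and in the Y-linked Ddx3y (0 to 0.746 and 15.9 to 22.0 TPM). Their part in the Fmr1 result was not tested.

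Fxr1 and Fxr2 fell from E12.5 to E16.5 brain. Fxr1 stood at 53.2 and 57.7 TPM with IgG against 58.8 and 60.6 with anti-G3BP1 at E12.5, and at 44.0 and 40.9 with IgG against 47.6 and 41.3 with anti-G3BP1 at E16.5, with no overlap (−0.40 ± 0.09, adjusted p = 0.00602). Elsewhere Fxr1 ranged from 51.0 to 69.7 TPM in the fixed embryo, which overlapped E12.5 brain, and from 35.7 to 52.1 TPM in the fresh-frozen libraries, which overlapped E16.5 brain. Fxr2 stood at 279 and 221 TPM with IgG against 286 and 252 with anti-G3BP1 at E12.5, and at 219 and 208 with IgG against 192 and 209.8 with anti-G3BP1 at E16.5, again with no overlap (−0.32 ± 0.10, adjusted p = 0.0249). Fxr2 in the fixed embryo lay between 103 and 145 TPM, below every E12.5 brain library, and it was the only member called between these tables (0.94 ± 0.10, adjusted p = 0.00012). There 5932 genes (29.3%) were called higher and 3972 (19.6%) lower, so that 59.9% of calls were higher, against 46.5% when libraries were scaled by a median of ratios. That scaling moved the median of all genes from 0.13 to −0.04 here and from 0.17 to 0.04 between the brain stages. In IgG libraries alone Fxr1 did not pass between brain stages (−0.38, adjusted p = 0.0607), nor did Fxr2 (−0.22, adjusted p = 0.271), and the Fxr2 call was also lost without 5 of the 8 libraries, each left out in turn (E12.5 brain IgG replicate 1 and anti-G3BP1 replicate 1, and E16.5 brain IgG replicate 2 and both anti-G3BP1 libraries, −0.26 to −0.32, adjusted p = 0.0557 to 0.0811). In the fresh-frozen libraries Fxr2 was lower in the untreated libraries (84.0 and 98.6 TPM) than in the antibody libraries (136 to 153 TPM).

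Pum2 stood at 94.9 and 104.6 TPM with IgG against 90.0 and 79.6 with anti-G3BP1 in E12.5 brain, and at 119 and 114 with IgG against 127 and 115 with anti-G3BP1 in E16.5 brain, with no overlap. It rose by 0.36 ± 0.10 (adjusted p = 0.0116), which did not pass in IgG libraries alone (0.22, adjusted p = 0.142). In the fixed embryo it lay between 75.3 and 92.7 TPM and in the fresh-frozen libraries between 164.5 and 199 TPM, above all others. Stau1 ranged from 53.2 to 66.7 TPM in the fixed embryo, from 59.4 to 77.7 in brain at E12.5, from 72.2 to 86.2 at E16.5 and from 65.8 to 89.3 in the fresh-frozen libraries, and each of these ranges overlapped its neighbour in the order of means. Between brain stages Stau1 did not pass (0.24 ± 0.11, adjusted p = 0.0869), but it did without E12.5 brain IgG replicate 1 or E16.5 brain IgG replicate 2 (0.31 each, adjusted p = 0.0336 and 0.0498). Cyfip1 ranged from 15.4 to 18.2 TPM in the fixed embryo, from 14.1 to 23.5 in brain at E12.5 and from 17.8 to 21.3 at E16.5, all overlapping, and between 26.9 and 36.3 in the fresh-frozen libraries, above the rest. Its stage difference was 0.07 ± 0.17 (adjusted p = 0.769) and turned to −0.082 under the median of ratios.

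**Figure D5:**
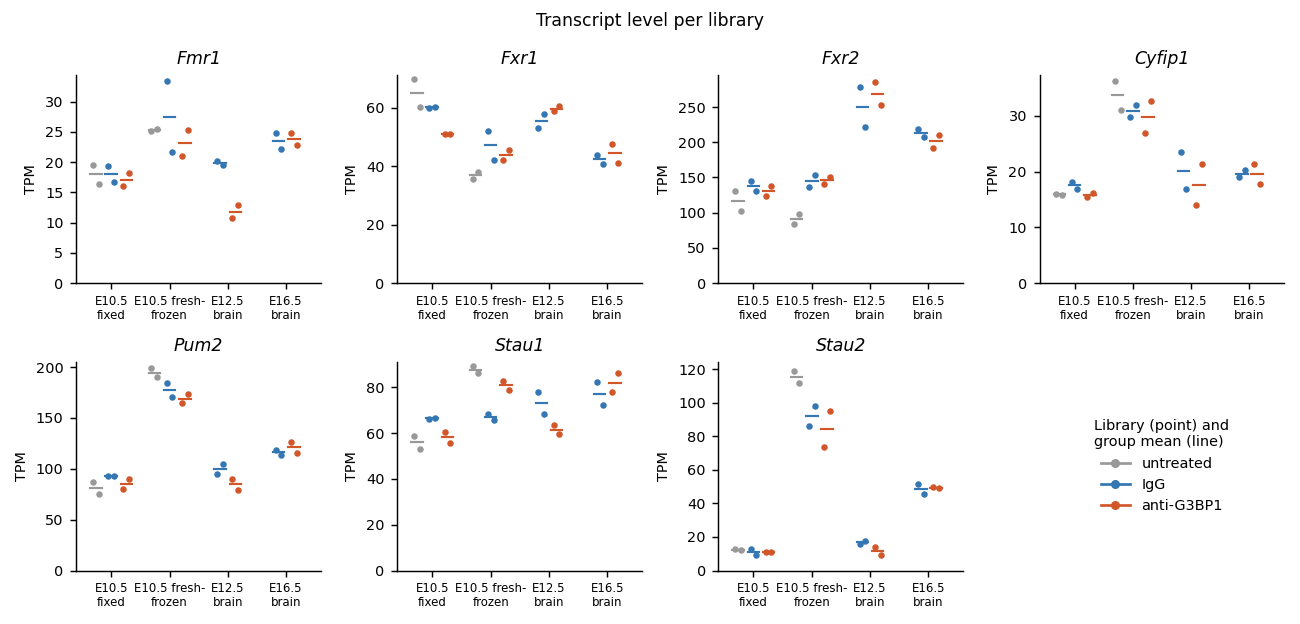
Transcript level (TPM) in each library (points) with the group mean (lines), by table along the horizontal axis and antibody by colour, 1 panel per gene with its own axis from 0. Stau2 lies between 9.05 and 17.8 TPM in the fixed embryo and E12.5 brain and at 45.6 TPM or more elsewhere. In E12.5 brain the anti-G3BP1 points of Fmr1, Pum2, Stau1 and Stau2 lie below their IgG points, and those of Fxr1 above. These differences in level between antibodies were not tested.

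Between the fixed embryo and E12.5 brain the other 5 genes changed by −0.18 ± 0.17 (Fmr1), 0.05 ± 0.10 (Fxr1), 0.15 ± 0.17 (Cyfip1), 0.05 ± 0.09 (Pum2) and 0.11 ± 0.08 (Stau1), with adjusted p between 0.330 and 0.683. The last 4 turned negative under the median of ratios. Cell content moved with the tables. Neural progenitor markers summed to 1346 to 1800 TPM at E12.5 and 401 to 480 TPM at E16.5, with 4 of 4 genes at 1 TPM or more in both, neuronal markers to 2532 to 3063 and 4169 to 4307 TPM (5 of 5 genes in both), and forebrain markers to 14.6 to 37.7 and 705 to 809 TPM (3 of 3 genes in both). Embryonic red cell globins summed to 12424 to 17892 TPM in the fixed embryo and 7848 to 11410 TPM in E12.5 brain, and to 19.8 to 26.1 TPM in E16.5 brain, where Hbb-bh1 was below 1 TPM. Their part in the stage differences was not tested.

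The same lists were followed in the stage comparison. From E12.5 to E16.5 brain 7 of 8 WAVE genes rose and none fell (median 0.60, against 0.17 over all genes, of which 32.3% rose and 17.7% fell), among them Cyfip2, the paralogue of Cyfip1 (1.49 ± 0.14, adjusted p = 3.89e-05), Wasf1 (1.38 ± 0.12, adjusted p = 3.14e-05) and Abi2 (1.36 ± 0.12, adjusted p = 3.1e-05), while Cyfip1 did not pass. Of 20 FMRP-bound mRNAs 19 rose (median 1.17), led by the synaptic genes Shank1 (1.82 ± 0.10), Grin2b (3.36 ± 0.20) and Grm5 (3.89 ± 0.26). Of 19 FMRP partners 9 rose, such as G3bp2 (0.70 ± 0.09) and Ddx6 (0.63 ± 0.08), and 3 fell, such as Ago1 (−0.77 ± 0.12). Of 13 Pumilio partners 5 rose, led by Nanos1 (2.2 ± 0.21), and 1 fell, Cnot3 (−0.64 ± 0.09). Of 12 Staufen genes 2 rose, Zfr (0.63 ± 0.11) and Smg1, and 4 fell, such as Hnrnpu (−0.47 ± 0.08) and Ddx1 (−0.54 ± 0.11).

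From the fixed embryo to E12.5 brain 16 of 19 FMRP-bound mRNAs rose (median 1.44, against 0.13 over all genes, of which 29.3% rose and 19.6% fell), led by Nlgn2 (1.82 ± 0.08), Shank1 (2.76 ± 0.16) and Ank2 (2.06 ± 0.15). Of 19 FMRP partners 3 rose, Ddx6 (0.73 ± 0.08) first, and 10 fell, led by Mov10 (−2.05 ± 0.17) and the cold-shock protein Ybx1 (−0.76 ± 0.07). Of 12 Staufen genes 7 rose, such as Smg5 (0.59 ± 0.10) and Upf3b (0.77 ± 0.15), and none fell. WAVE genes split, with Wasf3 (0.75 ± 0.14) and Cyfip2 higher and Brk1 (−0.91 ± 0.09) and Wasf2 (−0.65 ± 0.14) lower, as did Pumilio partners, with Cnot7 (0.42 ± 0.10) and Cnot10 higher and Cnot11 (−0.79 ± 0.12) and Cnot9 (−0.45 ± 0.10) lower. In IgG libraries alone Cnot9, Upf3b and Wasf3 did not pass, and Cnot7 did not under the median of ratios.

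For each gene the 2 genes with the most similar level were found by Pearson's r of log2(TPM + 1) over the 20 libraries, among 12466 genes with a mean of 10 TPM or more. Libraries of 1 table share tissue and preparation, so these values mostly follow the 4 tables, and they are descriptions only. Stau2 was most like Arpp21 (r = 0.992) and Ubash3b (0.990), and Pum2 most like Taok1 (0.990) and Zfr (0.989). Arpp21 averaged 0.45 TPM in the fixed embryo, 1.2 TPM at E12.5, 17.9 TPM at E16.5 and 79.5 TPM in the fresh-frozen libraries, the same order as Stau2. Cyfip1 was most like Vti1a (0.969) and Usp40 (0.957), Fxr2 like Tmed4 (0.967) and Fbxl6 (0.963), Stau1 like Zfp324 (0.946) and Arhgap35 (0.907), Fxr1 like Nop58 (0.920) and Hbb-bh0 (0.900), and Fmr1 like Fam169a (0.903) and Ap1g2 (0.899).

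Some of these genes overlap others in the annotation. Cyfip1 overlaps Nipa2 and Fxr1 overlaps Dnajc19, both on the opposite strand, and Stau2 overlaps 2 antisense genes. Whether the counting used strand is not given in the sources used here, so reads of these pairs may not be told apart in TPM. No kept site of the 7 genes was listed under another gene as well.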

How the data were processed

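The deposited editing tables give, per the file headers, counts of edited reads and of all reads at each listed site in each library, made by the authors. The deposited expression tables give TPM per gene, normalized by the authors within each library. The submitters' processing notes list Subread, featureCounts 2.0.1, GATK 4.5.0.0, HISAT2 2.2.1, BWA 0.7.17 and Picard 3.1.1, and the mouse build mm10 (GRCm38), without their roles. Libraries were grouped by their labels into 10 groups of 2.

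Repeated site lines were removed. A site was kept if each library of its table had at least 10 reads there, and a gene was tested if each library had at least 50 reads over its kept sites. Per gene, edited reads and unedited reads were added up, 0.25 was added to each sum, and a quasi-binomial logistic model was fitted for each gene, with dispersions moderated by squeezeVar in limma 3.58.1 under R 4.3.3. Adjusted p-values are Benjamini-Hochberg over all genes of a comparison, with 0.05 as the threshold. Tests are two-sided, and ± gives the SE. Levels across tables were tested with limma on log2(TPM + 1) after rescaling over shared genes, with the antibody as covariate, on genes at 1 TPM or more in at least 2 libraries; such changes understate those of low genes. The scripts were tested on simulated data. Wilson intervals are at 95%, and the limit for a count of 0 is 3 reads of the total. Windows came from GENCODE M21 transcripts on GRCm38.

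The 7 genes and the lists were chosen with earlier results of these data known. By rule the text gives all 7 genes in each comparison that tested them, with reads alone where a group had 0 edited reads. Values of the alternative fits that turned direction are printed even where a group had 0 edited reads. It also gives their 2 most similar genes by level, and for each list its counts and up to 3 called genes with the smallest adjusted p. The single sites described are a choice, and the sites with most edited reads are not given for every gene and table. The alternatives tried were A-to-G or C-to-T sites alone, other minimums of reads, leaving out sites edited in 50% of reads or more, edgeR 4.0.16 on the counts, changes relative to the median gene, a replicate block, median-of-ratios scaling, IgG libraries alone, and each library left out. A fit without the most edited site of each gene was chosen after seeing the data. Protein sequences were not used here.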

Additional observations from a re-analysis of the deposited data

Results flagged for a closer look

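Fxr2 was flagged because its libraries moved in opposite directions, without overlap, under the same contrast. How many of all genes do so was not counted, so this is not shown to be particular to Fxr2. With anti-G3BP1 over IgG its log2 odds ratio of editing was −0.58 in the fixed embryo, where both anti-G3BP1 libraries lay below both IgG libraries, and 1.04 in E16.5 brain and 0.74 at E12.5, where both lay above. None of the 3 values passed on its own, and the difference between the tables was not tested. The fixed embryo value rested on 10 edited reads with IgG and 4 with anti-G3BP1. The E12.5 value turned to −0.26 without the most edited site of every gene.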

How the results depend on the processing

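Against 189 genes called for anti-G3BP1 over IgG in the fresh-frozen table, the count was 337 with 5 or more reads per site, 120 with 20, 117 with 20 reads per gene, 82 for A-to-G sites alone, 0 for C-to-T sites alone, 66 without the most edited site of each gene, 4 relative to the median change, and 49 with the replicate block. Against 694 in E16.5 brain it was 396 for A-to-G, 22 for C-to-T, 415 without the most edited site and 4 relative to the median. Against 1 in the fixed embryo it was 0 for C-to-T, without sites edited in 50% of reads or more, without the most edited site and with edgeR, and 2 relative to the median. In E12.5 brain it was 1 with 20 reads per site. For IgG over untreated in the fresh-frozen table, against 19, it was 42 with 5 reads per site, 3 with 20, 4 with 20 reads per gene, 3 for A-to-G, 0 for C-to-T, 1 without the most edited site, 99 with edgeR, 1 relative to the median and 2 with the replicate block. With each library left out the counts ran from 0 to 106 in the fresh-frozen table, 0 to 156 in E16.5 brain, 0 to 1 in the fixed embryo and 0 to 38 in E12.5 brain, and for IgG over untreated from 0 to 2 in the fixed embryo and 0 to 1 in the fresh-frozen table; these fits have fewer libraries. In IgG libraries alone 6595 genes were called between brain stages and 6431 between the fixed embryo and E12.5 brain.

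Replicate numbers did not pair libraries (correlations of same-numbered deviations from −0.04 to 0.02). The replicate block kept the calls of Pum2 in the fresh-frozen table (1.70, adjusted p = 0.0350) and of Fmr1 (2.13, adjusted p = 0.00316) and Pum2 (0.93, adjusted p = 0.0124) in E16.5 brain, as did edgeR, while Ddx6 and Zfr lost theirs in the fresh-frozen table (adjusted p = 0.120 and 0.0746 with the block).

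Directions turned only in changes that had not passed, except Ddx6 in the fresh-frozen table (−0.54 for C-to-T). For C-to-T sites alone they were Fmr1 (3.17), Fxr2 (0.45) and Stau1 (−0.28) in the fresh-frozen table and Fxr1 in E16.5 brain (−0.000801). For A-to-G alone they were Pum2 in E12.5 brain (−0.045) and Pum2 for IgG over untreated in the fixed embryo (1.54). With 20 reads per site they were Fxr1 in the fixed embryo (−0.018) and Pum2 in E12.5 brain (−0.30). Without the most edited site they were Fmr1 in the fresh-frozen table (0.00872), Fxr2 in E12.5 brain (−0.26) and Fxr1 in E16.5 brain (−0.27). Fmr1 in the fresh-frozen table was 0.0115 with edgeR and 0.043 with the block. Relative to the median they were Fxr1 in the fixed embryo (−0.037) and E16.5 brain (−0.53), Stau1 in the fresh-frozen table (−0.49), Pum2 in E12.5 brain (−0.11) and Stau2 in E16.5 brain (−0.43). In expression, the median of ratios gave −0.082 for Cyfip1 between brain stages, and −0.16 (Fxr1), −0.048 (Cyfip1), −0.16 (Pum2) and −0.10 (Stau1) between the fixed embryo and E12.5 brain. IgG libraries alone gave −0.0199 for Cyfip1 between brain stages, and 0.13 for Fmr1 and −0.11 for Fxr1 between the fixed embryo and E12.5 brain.

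With each library left out, changes that turned ran from −0.72 to 0.93 (Fxr1), −0.20 to 4.62 (Cyfip1) and −0.28 to 2.03 (Pum2) in the fixed embryo, −0.33 to 0.35 (Fmr1) and −0.38 to 0.32 (Fxr2) in the fresh-frozen table, −0.86 to 2.82 (Pum2) and −1.86 to 2.9 (Stau1) in E12.5 brain, and −0.31 to 1.08 (Fxr1) and −0.19 to 0.57 (Stau2) in E16.5 brain. Pum2 ran from −2.06 to 0.25 for IgG over untreated in the fixed embryo and from −0.29 to 4.82 in the difference between brain stages, and Cyfip1 expression from −0.061 to 0.18 between brain stages. In some of these fits the single library left in a group had 0 edited reads. These gave 4.62 (Cyfip1, IgG), 2.82 (Pum2, IgG), −1.86 (Stau1, anti-G3BP1) and −0.29 (Pum2, E12.5 brain IgG). Such values depend on the 0.25 added to each sum and are not read as folds. Why directions turned was not tested. Sites with 1 edited read were rarer than those with 2 in every library of the fixed, fresh-frozen and E16.5 tables, and how the authors filtered the listed sites is not given in the sources used here.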
